A study of Mus musculus with 8 samples.

Results

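Antisense and processed noncoding transcripts are the rows of the deposited heart gene table whose gene type is antisense (67 rows) or processed_transcript (49 rows), 116 of 4820 rows in all. The table compares hearts of 4 WT and 4 ARE-/- male mice of strain C57B6/J, aged 20 to 25 weeks, by paired-end sequencing of total RNA. The labels title the ARE-/- hearts as knockouts, name no treatment for either group and do not spell out ARE, and the study's title names IFN-γ and androgens. The gene that encodes IFN-γ, Ifng, had normalised counts of 0, 3.59, 0 and 1.03 in WT and 84.2, 41.4, 23.7 and 48.9 in ARE-/-, in order of replicate number. The table holds only genes that passed the authors' DESeq2 test at an adjusted p under 0.05, which was 24.6% of the 19606 genes tested. Every member therefore differed between the groups by that test, and a transcript outside the table has no known direction.

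An antisense RNA is transcribed from the strand opposite another gene, and a processed transcript is a spliced RNA without an open reading frame that the annotation accepts. Such RNAs are usually scarce and often stay in the nucleus. Some act on the locus they are made from, such as the long RNAs that silence imprinted genes, while others are host transcripts from which microRNAs (miRNAs) are cut. In the mouse heart, the antisense transcript of the myosin locus, Mhrt, is a known regulator of the response to pressure overload. RefSeq gives other symbols for some rows of these classes. It lists D830015G02Rik as Mhrt, 1810026B05Rik as Chaserr and 2310015B20Rik as Mrln, which encodes the small muscle protein myoregulin.

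Of the 116 members, 5 span miRNA genes of the RefSeq table (GRCm38.p6) on their own strand, and these 5 hosts hold 19 different mature miRNAs. The table counts the host transcripts, not the mature miRNAs. The 5 mature forms below come from 3 hosts described further on. miR-100-5p, miR-99a-5p and miR-125b-5p are shown for the sequences that 2 of these hosts share, and let-7c-5p and miR-22-3p as further examples. Capitals mark the seed, bases 2 to 8.
mmu-miR-100-5p, in 2610203C20Rik: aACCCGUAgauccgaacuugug
mmu-miR-99a-5p, in 2810055G20Rik: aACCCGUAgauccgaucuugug
mmu-miR-125b-5p, in both of these hosts: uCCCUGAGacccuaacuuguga
mmu-let-7c-5p, in 2810055G20Rik: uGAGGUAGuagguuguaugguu
mmu-miR-22-3p, in Mir22hg: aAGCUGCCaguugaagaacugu
The hosts 2610203C20Rik (Mir100hg in RefSeq) and 2810055G20Rik (Mir99ahg) lie on chromosomes 9 and 16. miR-100-5p and miR-99a-5p share the seed ACCCGUA, and miR-125b-5p is encoded in both hosts with the same sequence.

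RefSeq promoter windows, 250 bases before to 50 after a start site, were found for 59 of the 116 members. The windows were searched on both strands for the gamma-activated site (TTC and GAA separated by any 3 bases) and for a core of the interferon-stimulated response element (GAAA and GAAA separated by any 2 bases). The first motif occurred in 5 of 63 member windows (7.94%) and in 8.3% of all 32851 windows of the table. The second motif occurred in 3 member windows (4.76%) and in 3.44% of all windows. No window of a risen member held the first motif, and 1 of 7 held the second. Matches lay in windows of 8 members, among them the fallen members Rian, 2810055G20Rik and Six3os1 described further on. The 2 windows below are shown as 1 example of each motif, from a fallen and a risen antisense member, with the match in capitals, on GRCm38.p6.
Gm15543, antisense, fallen, chr6:145182025-145182324, plus strand: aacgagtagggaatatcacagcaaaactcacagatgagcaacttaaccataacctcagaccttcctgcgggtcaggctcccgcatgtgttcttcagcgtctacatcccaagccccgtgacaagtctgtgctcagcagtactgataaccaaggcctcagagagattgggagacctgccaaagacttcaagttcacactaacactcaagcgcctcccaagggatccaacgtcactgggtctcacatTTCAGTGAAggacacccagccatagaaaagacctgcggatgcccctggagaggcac
Gm16118, antisense, risen, chr8:114708058-114708357, minus strand: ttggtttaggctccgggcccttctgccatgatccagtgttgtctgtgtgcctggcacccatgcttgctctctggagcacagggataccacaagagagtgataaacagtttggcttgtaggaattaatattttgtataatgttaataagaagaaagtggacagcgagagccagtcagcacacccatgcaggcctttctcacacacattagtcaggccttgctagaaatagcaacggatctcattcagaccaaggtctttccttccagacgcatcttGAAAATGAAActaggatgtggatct
A match is a run of letters and not a measured binding site.

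Of the 8 libraries, ARE-/- 1 and WT 3 stood apart from the others of their group. Library totals ran from 14321679 to 17129012 reads in WT and from 13416171 to 19432098 in ARE-/-. In ARE-/- 1, the median listed protein-coding gene lay at -0.02 on the log2 scale against the WT mean, while it lay between 0.49 and 0.53 in the other 3 ARE-/- libraries. Normalised counts, the unit used below, are read counts over the size factor that the authors gave each library, listed in order of replicate number. For a log2 difference, 0.5 was added to each normalised count, and the WT mean of the log2 values was subtracted from the ARE-/- mean, with the SE over 4 libraries per group. This offset pulls the differences of scarce transcripts towards 0. Adjusted p-values of single members are those of the authors' deposited table (DESeq2). Each library was taken as 1 mouse. The labels do not say that the libraries came from separate RNA extractions, so p-values measure the spread between these libraries.

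Most members were lower in ARE-/- hearts. By the authors' log2 fold change, 102 of the 116 members fell and 14 rose, and the fallen share of 87.9% stands beside 47.9% of all listed rows that fell and 52.1% that rose. Among antisense rows 57 fell and 10 rose, and among processed_transcript rows 45 fell and 4 rose. The long intergenic RNAs of the same table leaned the same way, with 103 fallen and 12 risen of 115, while protein-coding rows leaned upwards, with 2442 risen and 2000 fallen. The median log2 difference was -2.21 over antisense rows, -1.51 over processed_transcript rows and -1.71 over both, against 0.44 over all listed rows. Scaling by library totals raised the median of all listed rows by 0.20 and changed the sign of no member.

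Members were scarce, and scarce rows of every type leaned downwards in this table. The members' median normalised count over all libraries was 13.5, against 212 for all listed rows, and 66 of the 116 had a mean under 20. Among listed rows of every type under 20, 77.0% fell, against 87.9% of the members under 20. At a mean of 20 or more, 42.1% of all listed rows fell, and 44 of the 50 members did. Among members at 100 or more, 16 of 18 fell, against 40.9% of all listed rows at that level. The groups did not overlap in 92 of the 116 members (79.3%), close to the 81.5% of all listed rows.

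**Figure D1:**
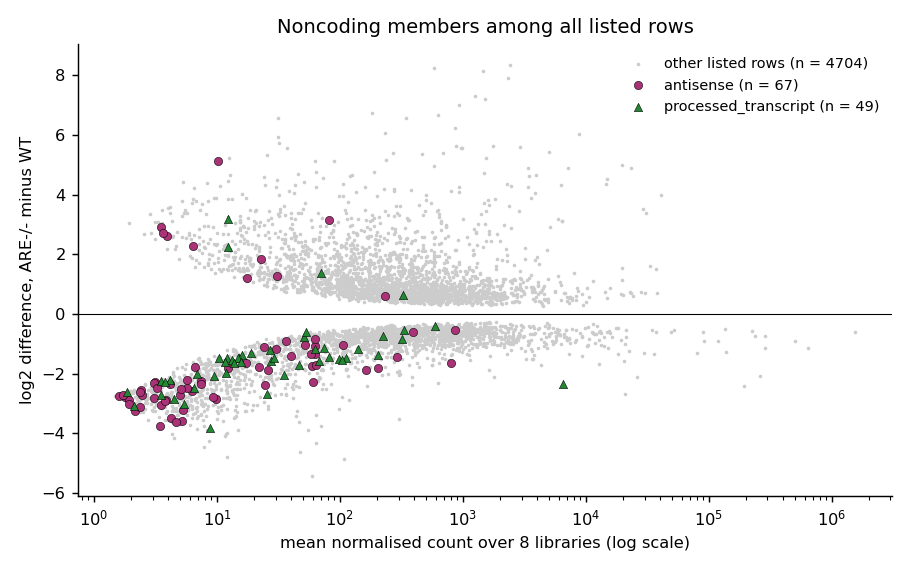
Each point is a listed row, with its mean normalised count over 8 libraries on a log x axis and its log2 difference (ARE-/- minus WT) on the y axis; antisense rows are circles, processed_transcript rows triangles and all other rows grey. Of the 116 members, 102 lie below 0, at low and at high counts, and the largest rise is 5.13.

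In total the members took 907, 1028, 1574 and 1278 CPM (read counts scaled by the library total) in WT and 512, 484, 524 and 545 in ARE-/-. The 2 groups did not overlap. Most of that gap came from Gm26917, the most abundant member, a processed transcript on chromosome 17 at a locus that is known in the mouse to contain ribosomal RNA repeat sequence. Counts after normalisation were 5495, 7106, 18635 and 11461 in WT and 571, 2144, 3219 and 3267 in ARE-/- (log2 difference -2.33 ± 0.71, adjusted p = 0.0031 by the authors' DESeq2). Its highest count was in WT 3 and its lowest in ARE-/- 1, the libraries that stood apart, and the part of residual ribosomal RNA in it was not tested. Without Gm26917 the members took 588, 620, 450 and 582 CPM in WT and 467, 341, 319 and 335 in ARE-/-, and the groups then overlapped at WT 3 and ARE-/- 1. The median fallen member lay 1.58, 1.92, 1.94 and 1.74 log2 units below its WT mean in the 4 ARE-/- libraries, and at 0.12, 0.21, -0.33 and 0.06 in the WT libraries.

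Markers of several cell types moved with the groups. Of 7 macrophage markers 6 were listed and rose, with a summed level of 436 to 709 CPM in WT and 2559 to 4265 in ARE-/-. All 6 markers of T and NK cells rose, from a sum of 6.12 to 16.5 CPM to a sum of 85.0 to 116. Of 7 cardiomyocyte markers 5 were listed and fell, with sums of 20848 to 28222 in WT and 13262 to 16039 in ARE-/-. All 4 red cell markers fell, from 42160 to 50176 CPM to 7317 to 32600. The B cell marker Pax5 and the endothelial marker Kdr fell, the fibroblast marker Col1a1 rose, and both adipocyte markers rose. Among the members, Bloodlinc, an RNA known from red cell precursors of the mouse and named here after its values were seen, had 14 reads over the WT libraries and none in ARE-/-, at least 5.81-fold lower when ARE-/- is set to 3 reads over the group. The muscle transcript 2310015B20Rik (Mrln), likewise named after its values were seen, fell from 22.0 ± 3.98 to 8.07 ± 3.53. The part of these cell types in the members' values was not tested, and in bulk tissue fewer cells of a type and less RNA per cell cannot be told apart.

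Among fallen antisense members, Gm15543 had the highest level per length, at 195 ± 52.7 FPKM (SD, n = 4) in WT hearts and 72.0 ± 21.3 FPKM (SD, n = 4) in ARE-/- hearts. It lies on chromosome 6 from 145182275 to 145187630 on the plus strand (mm10), inside an intron of the coding gene Casc1. It had normalised counts of 1163, 1646, 797 and 1169 in WT and 190, 460, 494 and 422 in ARE-/-. Every ARE-/- library was below every WT library (log2 difference -1.65 ± 0.39, adjusted p = 5e-06 by the authors' DESeq2). Casc1 itself fell from 108 ± 20.0 to 28.7 ± 19.3 (SD, n = 4 each).

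Banf2os, antisense to Banf2, had the largest fall by the authors' log2 fold change among antisense members with a mean count of 20 or more and no overlap between groups. Its normalised counts were 54.1, 39.5, 31.0 and 40.1 in WT and 5.72, 10.1, 5.27 and 9.61 in ARE-/- (log2 difference -2.38 ± 0.28, adjusted p = 9e-08, DESeq2 of the authors). The highest ARE-/- library, at 10.1, was well below the lowest WT library, at 31.0. Gm10371, on the strand opposite Samd4, fell from 97.8 ± 9.53 to 22.4 ± 14.8, and Gm3235, opposite the demethylase gene Fto, from 40.9 ± 13.8 to 10.8 ± 4.04. None of these 3 opposite-strand genes is in the table.

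C130080G10Rik was spread widely in WT and narrowly in ARE-/-. In WT it had 506, 486, 270 and 449 and in ARE-/- 140, 162, 143 and 167 normalised counts (log2 difference -1.44 ± 0.22, adjusted p = 2.5e-09, DESeq2 of the authors). WT 3 was the lowest WT library and still above every ARE-/- library. B230369F24Rik fell from 84.6 ± 25.5 to 32.2 ± 4.88.

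The processed transcript with the smallest adjusted p was BB218582, on the minus strand of chromosome 2 from 106642914 to 106650364. Its normalised counts were 159, 153, 125 and 147 in WT and 40.9, 54.8, 49.2 and 59.3 in ARE-/- (log2 difference -1.51 ± 0.14, adjusted p = 9.6e-11, DESeq2 of the authors). The groups were far apart, at 146 ± 14.8 and 51.0 ± 7.94. 4631405J19Rik, opposite Prdm11, fell from 167 ± 32.4 to 59.2 ± 11.5. Firre, an X-linked RNA that organises chromatin contacts in the nucleus, fell from 69.8 ± 8.97 to 23.1 ± 12.8, and Dancr, an RNA studied as a brake on differentiation, from 40.9 ± 8.32 to 16.7 ± 9.99. Gm10125 fell from 56.6 ± 23.9 to 14.1 ± 7.43.

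Risen members were few, and 8 of the 14 lay under a mean count of 20. The largest rise was 4930430E12Rik, a row of gene type antisense on chromosome 4 from 6352105 to 6357530, named here after its values were seen. It had no read in any WT library and 52, 8, 17 and 18 reads in the ARE-/- libraries, which is at least 24.7-fold higher when WT is set to 3 reads over the group. A530040E14Rik, on chromosome 1 from 85105946 to 85114035, had normalised counts of 18.0, 10.8, 30.0 and 7.19 in WT and 281, 120, 92.2 and 96.1 in ARE-/- (log2 difference 3.15 ± 0.57, adjusted p = 2.9e-09, DESeq2 of the authors). ARE-/- 1 was by far the highest, and the other 3 ARE-/- libraries also exceeded every WT library.

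6530402F18Rik had normalised counts of 36.0, 33.5, 38.7 and 44.2 in WT and 63.0, 122, 109 and 117 in ARE-/- (log2 difference 1.38 ± 0.24, adjusted p = 1.3e-05, DESeq2 of the authors). Here ARE-/- 1 was the lowest of its group. The more abundant 2410006H16Rik rose from 249 ± 21.1 to 406 ± 166 and Brip1os from 184 ± 17.7 to 280 ± 40.0. Gm16118, whose promoter window is shown above, had normalised counts of 1.20, 0, 0 and 1.03 in WT and 7.36, 4.48, 5.27 and 8.81 in ARE-/-.

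**Figure D2:**
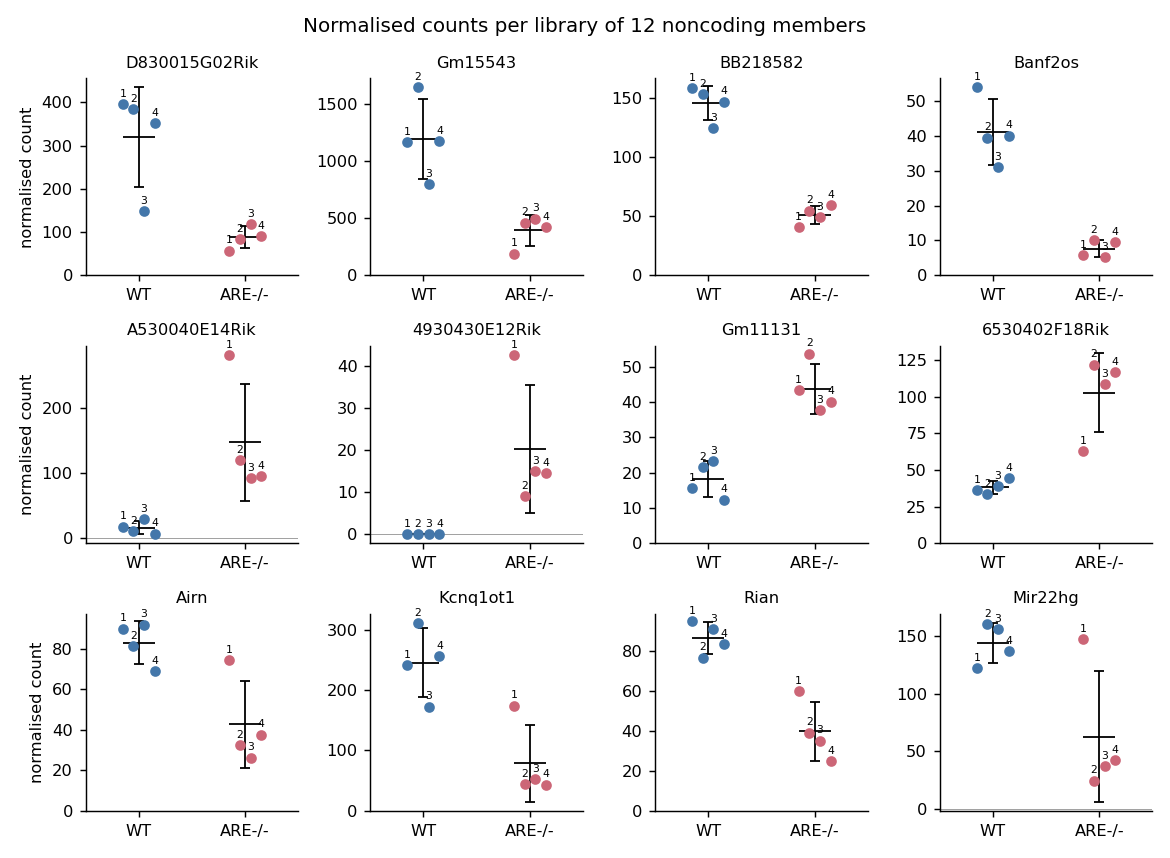
Normalised counts of 12 members in each library, with the replicate number at each point and a bar at the mean ± SD (n = 4 per group); each panel has its own linear axis from 0. The groups are apart in the 8 members of the upper rows and in Rian, and they meet at ARE-/- 1 in Airn, Kcnq1ot1 and Mir22hg.

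Of 79 well-known noncoding RNAs looked up by the gene names that the rows carry, 17 were listed, of which 16 fell and 1 rose. Beside this, 24.6% of all 19606 genes tested were listed, and 103 of the 115 listed long intergenic RNAs fell. Mhrt, Mir100hg and Mir99ahg are also among the 79, but their rows carry other names and were not matched. Of the 17 matched rows 4 were members, and all 4 fell. Airn, which silences the Igf2r cluster on the paternal chromosome, had normalised counts of 90.1, 81.4, 92.0 and 68.9 in WT and 74.4, 32.4, 26.3 and 37.7 in ARE-/- (log2 difference -1.06 ± 0.33, adjusted p = 0.028, DESeq2 of the authors). ARE-/- 1 lay inside the WT range and the other 3 below it. Igf2r is not in the table, while Slc22a3, another gene of that cluster, fell from 105 ± 7.38 to 36.6 ± 20.3.

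Kcnq1ot1, the imprinted RNA that runs antisense through Kcnq1, had normalised counts of 241, 311, 172 and 256 in WT and 174, 43.6, 52.7 and 43.3 in ARE-/- (log2 difference -1.89 ± 0.51, adjusted p = 0.0015, DESeq2 of the authors). Its groups overlapped, since ARE-/- 1 was just above WT 3. Kcnq1 is not in the table. H19, an imprinted RNA from the same chromosome, fell from 3481 ± 407 to 2118 ± 476.

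Rian belongs to the imprinted Dlk1-Meg3 cluster of chromosome 12 and hosts small nucleolar RNAs and miRNAs. Its normalised counts were 94.9, 76.6, 91.0 and 83.3 in WT and 59.7, 39.2, 35.1 and 24.8 in ARE-/- (log2 difference -1.18 ± 0.27, adjusted p = 0.0016, DESeq2 of the authors). All ARE-/- libraries were below all WT libraries. Its neighbours Meg3 (208 ± 58.0 to 30.3 ± 19.9), Mirg (13.4 ± 4.12 to 2.80 ± 1.68) and Dlk1 (26.9 ± 5.48 to 7.20 ± 6.64) fell as well, and are listed under other gene types.

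Mir22hg, the host of miR-22, had normalised counts of 123, 160, 156 and 137 in WT and 147, 24.6, 36.9 and 42.5 in ARE-/- (log2 difference -1.54 ± 0.56, adjusted p = 0.048, DESeq2 of the authors). Its fall rested on 3 libraries, since ARE-/- 1 was inside the WT range. The miR-100 host 2610203C20Rik had 137, 110, 108 and 106 in WT and 90.8, 33.6, 29.0 and 35.3 in ARE-/-, with no overlap (log2 difference -1.44 ± 0.38, adjusted p = 0.0038, DESeq2 of the authors). Its counterpart 2810055G20Rik, which carries the miRNA with the same seed, had 428, 430, 326 and 392 in WT and 325, 239, 256 and 259 in ARE-/- (log2 difference -0.55 ± 0.13). The difference between these 2 hosts was not tested. The fifth host, 2610307P16Rik, fell from 11.1 ± 4.12 to 2.63 ± 2.07. Both 2810055G20Rik and 2610307P16Rik were named after their values were seen.

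Next, each member was related to the rows that it overlaps. A listed row overlapped 36 of the 116 members, in 38 pairs, of which 36 lie on opposite strands and 2 on the same strand. In GENCODE M21, used as an annotation of the same genome build, 95 of 113 members found there overlap some other annotated gene, and 78 lie opposite a coding gene. That coding gene was listed for 34 members and not for 44. Of the antisense rows found there, 55 lie opposite a gene of any type. Others, such as 4930430E12Rik, overlap no other annotated gene, so antisense is here the type that the deposited table gives. The sources used here do not give the authors' use of strand in counting, so reads from a member and from exons of its partner cannot be told apart. In that annotation the exons of 51 members lie clear of the exons of every other gene, and of these 45 fell and 6 rose, with a median log2 difference of -2.03. Clear of exons does not mean clear of introns. The exons of Gm15543, Banf2os and Gm12002, for example, lie wholly in introns of genes on the other strand. The part of reads from unspliced RNA of those genes in such members was not tested.

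Members mostly moved in the same direction as the gene they overlap. In 30 of the 38 pairs (78.9%) both signs were the same, 26 with both fallen and 4 with both risen. In 7 pairs the member fell and the partner rose, and in 1 the member rose and the partner fell. Overlapping pairs of other listed rows had the same sign in 115 of 151 cases (76.2%). By layout, 15 of 16 head-to-head pairs, which overlap at their 5′ ends, had the same sign, as did 12 of 15 nested pairs and 2 of 5 tail-to-tail pairs. In opposite-strand pairs of other rows these numbers were 21 of 29, 22 of 31 and 38 of 52.

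Whether a member changed by a different amount than its partner was tested on the log2 ratio of the 2 normalised counts in each library, in which the library scaling cancels (limma over all 189 overlapping pairs, Benjamini-Hochberg adjustment). The ratio differed between genotypes in 19 of the 38 pairs, beside 48.7% of all 189 pairs. The member's change was the lower of the 2 in 14 of the 19 and the higher in 5. All rows tested had been listed for a difference between the same libraries, and in 8 of the 19 pairs the signs were opposite. For such pairs a differing ratio was close to fixed in advance, so their ratio p-values add little to the 2 listed changes. All 8 member pairs of opposite sign passed, as did 35 of the 36 such pairs of other rows. In an exact two-sided permutation test of each pair, whose smallest p with 4 against 4 is 0.0286, no pair passed after adjustment (smallest adjusted p = 0.0667), and 14 of the 38 were at an unadjusted p under 0.05. With that smallest p, a pair could pass only if most of the 189 pairs reached it, so this test could hardly pass any pair.

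**Figure D3:**
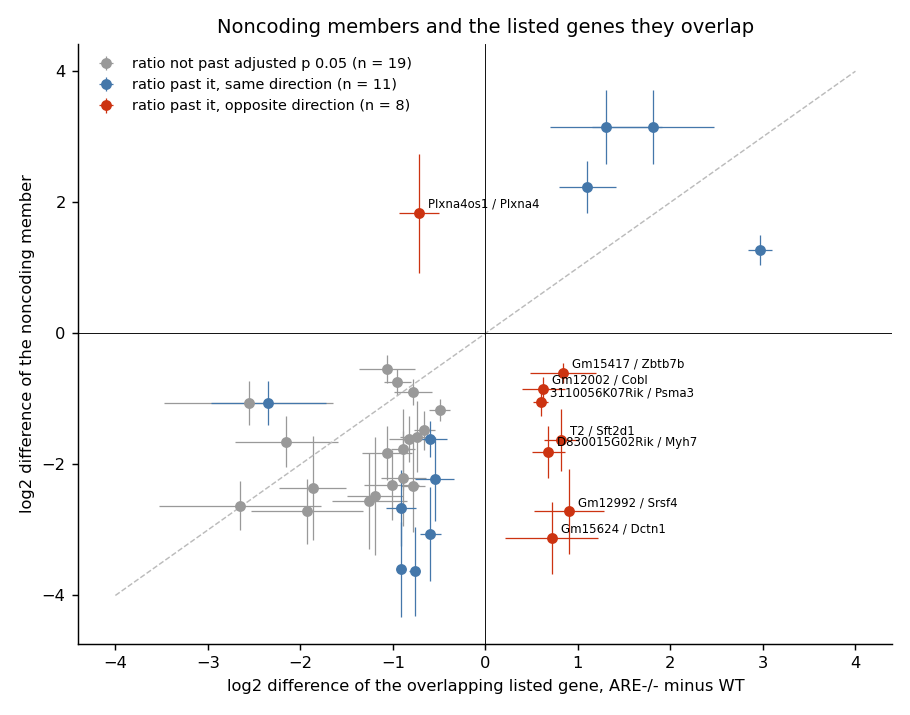
Log2 differences (ARE-/- minus WT, ± SE, n = 4 per group) of the listed gene on the x axis and of the member that overlaps it on the y axis, for 38 pairs; the dashed line marks equal change. In 8 pairs, in red and named, the signs are opposite and the ratio passed the limma test.

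At the myosin locus, an antisense RNA fell while the heart muscle gene that it overlaps rose. D830015G02Rik, the transcript RefSeq names Mhrt, runs on the plus strand of chromosome 14 from 54968678 to 54974349, and its 3′ part overlaps 3662 bases of Myh7, which encodes the slow β-myosin heavy chain, on the minus strand. Its normalised counts were 396, 384, 148 and 353 in WT and 57.2, 83.9, 119 and 91.3 in ARE-/- (log2 difference -1.81 ± 0.40, adjusted p = 5.8e-07, DESeq2 of the authors). WT 3 was close to ARE-/- 3, and the groups did not overlap. Myh7 had 1199, 1094, 1072 and 1217 in WT and 2602, 1695, 1557 and 1638 in ARE-/- (log2 difference 0.68 ± 0.18, adjusted p = 0.0024), so every ARE-/- library was above every WT library. The ratio of the antisense RNA to Myh7 fell by 2.49 ± 0.45 on the log2 scale (limma, adjusted p = 0.0022). In GENCODE M21, 39.9% of the exon bases of this member lie within exons of genes on the other strand. Myh6, the neighbouring gene of the fast α-myosin heavy chain, is not in the table.

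Among the remaining 7 pairs of opposite direction, 3110056K07Rik had 75.7, 87.3, 60.0 and 58.6 in WT and 43.3, 29.1, 26.3 and 37.7 in ARE-/-, while Psma3, a subunit of the proteasome core, rose from 1603 ± 124 to 2427 ± 210. Their ratio fell by 1.64 ± 0.25 (limma, adjusted p = 0.00114). Gm12002 fell from 81.3 ± 13.3 to 45.0 ± 9.10 within the actin-nucleator gene Cobl, which rose from 94.4 ± 14.1 to 149 ± 41.8 (ratio -1.48 ± 0.24, limma adjusted p = 0.00137). All of its exons lie in introns of the opposite strand.

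Gm15417 fell from 473 ± 72.4 to 310 ± 40.8 and overlaps the 5′ end of Zbtb7b, a transcription factor gene best known for committing T cells to the CD4 lineage. Zbtb7b had 374, 473, 502 and 429 in WT and 388, 1056, 978 and 982 in ARE-/- (ratio -1.45 ± 0.32, limma adjusted p = 0.00508). In ARE-/- 1 this partner was within the WT range. ARE-/- 1 was also the lowest ARE-/- library for the dynactin gene Dctn1 (1116 ± 122 to 2096 ± 980) and the splicing factor gene Srsf4 (52.3 ± 9.89 to 104 ± 39.1), whose ARE-/- 1 values were 652 and 46.6. The members that overlap them, the antisense row Gm15624 and the processed transcript Gm12992, were scarce. Gm15624 had 17 reads in all over the WT libraries and none in ARE-/-, and Gm12992 went from 6.20 ± 1.89 to 0.81 ± 1.13.

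T2 overlaps Sft2d1 on the same strand over 24457 bases. GENCODE M21 types T2 as protein-coding, and 18.0% of its exon bases there lie within exons of other genes on the same strand. T2 fell from 20.3 ± 2.74 to 7.17 ± 4.19, while Sft2d1 rose from 277 ± 75.4 to 476 ± 31.9 (ratio -2.44 ± 0.47, limma adjusted p = 0.00286). Plxna4os1 was the only member of the 38 pairs that rose over a fallen partner. It had 1.20, 9.57, 15.5 and 16.4 in WT and 74.4, 15.7, 23.7 and 24.8 in ARE-/-, with overlap, and Plxna4, a semaphorin co-receptor gene, fell from 232 ± 45.8 to 140 ± 27.4. Their ratio rose by 2.55 ± 0.81 (limma, adjusted p = 0.0291), and without WT 2, ARE-/- 1 or ARE-/- 4 the adjusted p was 0.0604, 0.073 or 0.0578.

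**Figure D4:**
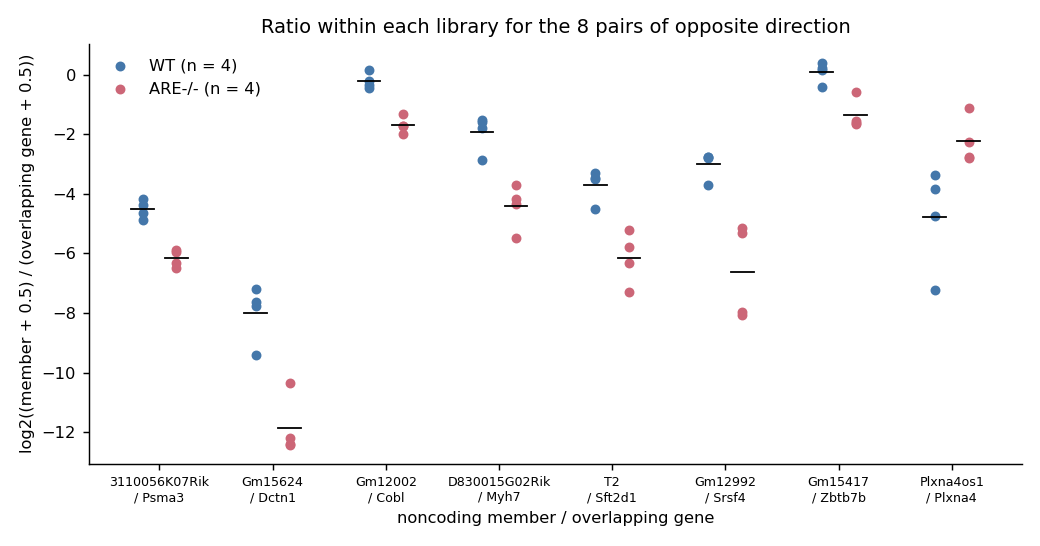
Log2 ratio of the member to the gene it overlaps, with 0.5 added to both normalised counts, in each of 4 WT and 4 ARE-/- libraries for the 8 pairs of opposite direction; bars are group means. In 7 pairs the ratio was lower in ARE-/-, and for Plxna4os1 it was higher.

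The 4 pairs in which both rows rose include a gene of antigen presentation. Gm11131 overlaps the 5′ end of H2-Q4, a class I gene of the major histocompatibility complex, by 676 bases. The member had 15.6, 21.5, 23.2 and 12.3 in WT and 43.3, 53.7, 37.8 and 40.1 in ARE-/- (log2 difference 1.27 ± 0.23, adjusted p = 0.0019, DESeq2 of the authors). H2-Q4 rose far more, from 483 ± 44.1 to 3815 ± 552 (log2 difference 2.97 ± 0.13), and the ratio fell by 1.70 ± 0.30 (limma, adjusted p = 0.00195). Class I genes have near-identical copies, so the split of their reads is uncertain. A530040E14Rik overlaps both A530032D15Rik (9.57 ± 5.43 to 38.1 ± 32.5) and C130026I21Rik (34.2 ± 13.8 to 99.7 ± 83.6). The span of C130026I21Rik contains that of A530032D15Rik on the same strand, so these pairs are not separate loci. C130026I21Rik was at 223 in ARE-/- 1, and its groups overlapped, with ARE-/- 2 at 43.6 and WT 2 at 51.5. A530040E14Rik rose more than the first by 1.34 ± 0.28 (limma, adjusted p = 0.00429). It rose more than the second by 1.84 ± 0.66 (limma, adjusted p = 0.0463, and from 0.0631 to 0.122 without any 1 library other than WT 3). E030013I19Rik went from 4.25 ± 2.29 to 20.4 ± 4.93 at the 5′ end of Itga8, an integrin gene, which rose from 49.4 ± 9.45 to 111 ± 47.1.

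In the 26 pairs with both rows fallen, the member fell further than its partner past the threshold in 6 and less far in 1. RP24-496C19.2, inside the laminin gene Lama2, went from 9.09 ± 5.60 to 0.20 ± 0.40, while Lama2 fell from 713 ± 48.4 to 419 ± 18.4 (ratio -2.87 ± 0.61, limma adjusted p = 0.00462). Inside Ralgapa2, A930019D19Rik went from 9.73 ± 4.71 to 0.60 ± 1.20 (ratio -2.68 ± 0.66, limma adjusted p = 0.00875). Gm15910, inside the methionine sulfoxide reductase gene Msrb3, had 60.1, 43.1, 16.5 and 57.6 in WT and 8.18, 8.95, 6.15 and 2.40 in ARE-/- (ratio -1.76 ± 0.50, limma adjusted p = 0.0166). RP24-240G4.2, at the 5′ end of the nuclear receptor gene Nr2f2, fell from 23.6 ± 5.90 to 7.49 ± 2.41, and Nr2f2 from 163 ± 25.7 to 109 ± 23.3 (ratio -1.02 ± 0.25, limma adjusted p = 0.00916). The pair with the smaller fall of the member was Airn and Gm7162, which lies within it, with a ratio that rose by 1.29 ± 0.40 (limma, adjusted p = 0.0268, and from 0.0601 to 0.0758 without WT 2, WT 4, ARE-/- 2 or ARE-/- 4).

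In several further pairs the ratio did not pass the test. 4930513N10Rik fell from 192 ± 5.29 to 86.9 ± 21.1 at the 5′ end of Cnot1, the scaffold of the deadenylase complex, with a ratio of -0.68 ± 0.26 (limma, adjusted p = 0.0585, and 0.0398 without ARE-/- 3). 1810026B05Rik (Chaserr), which in the mouse limits the expression of its neighbour Chd2, fell from 39.0 ± 6.75 to 15.5 ± 12.1 with overlap at ARE-/- 1, and Chd2 from 510 ± 90.3 to 305 ± 54.4 (ratio -0.84 ± 0.42, limma adjusted p = 0.135, and 0.0229 without ARE-/- 1). 1700119I11Rik, inside the mitochondrial creatine kinase gene Ckmt2, went from 7.27 ± 4.39 to 1.05 ± 0.82 (ratio -1.55 ± 0.68, limma adjusted p = 0.092, and 0.0387 without WT 1). The ratio of Airn to Mas1 differed by 1.50 ± 0.78 (limma, adjusted p = 0.149). Six3os1 and Six3, a pair of scarce transcripts named after their values were seen, fell from 3.50 ± 0.76 to 0.20 ± 0.40 and from 14.1 ± 6.99 to 2.56 ± 2.51, with a ratio of 0.02 ± 0.66 (limma, adjusted p = 0.981). The ratio of Gm15543 to Casc1 differed by 0.50 ± 0.69 (limma, adjusted p = 0.595).

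Listed genes that run the other way without overlap were also searched, with starts within 2000 bases of the member's start. They were found for 4 members, among them Gm12992 of the Srsf4 pair. The head-to-head pairs above, which overlap at their 5′ ends, were not counted here. D230022J07Rik and Gm15535 fell together with Gpr155 and Pet112. BC048644 fell (log2 difference -2.87 ± 0.51, adjusted p = 0.029, DESeq2 of the authors), on only 14 reads over all 8 libraries. It starts 139 bases from Slc7a5, a gene of the large neutral amino acid transporter, which rose (1.01 ± 0.35, adjusted p = 0.013, DESeq2 of the authors). Gm12992 fell beside Tmem200b, which rose (0.98 ± 0.25).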

How the data were processed

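Total RNA of 4 WT and 4 ARE-/- hearts was sequenced in paired-end reads, per the labels' protocols. Per the submitters' processing notes, STAR, DESeq2 and the genome build mm10 were used, with no versions named. The gene table as deposited holds whole read counts per gene, which are raw per the file headers, and FPKM that the authors computed per library. The group columns hold a normalised signal by the authors, the mean of counts over size factors, from which each library's size factor was solved. The authors' DESeq2 results, log2 fold changes with raw and adjusted p-values, were used as deposited. Library totals, derived from counts and FPKM, were 13416171 to 19432098 reads, and precision is limited by counting at low levels. No column belonged to a sample of another series.

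The members and lists were chosen with earlier results of these data known. Each column carries the code of 1 library title. Pairs overlapped by at least 1 base. Ratios of pairs were tested with limma 3.58.1 in R 4.3.3. Refits with edgeR 4.0.16 and DESeq2 1.42.0, adjusted as if 19606 genes had been tested, served as alternatives only, because rows were selected on the same libraries; the models were tested on simulated data. Exons came from GENCODE M21 (113 of 116 members matched by identifier, 50 with the same exonic length), and sequences from RefSeq (GRCm38.p6). Members were named by a rule. It took the 8 largest rises and 8 largest falls per class with a mean count of at least 20 and no overlap. It also took the 12 opposite-strand pairs with the smallest adjusted p, all same-strand pairs, up to 10 pairs of opposite direction past the ratio test, and members or partners on lists of known noncoding, interferon and heart genes. The alternatives were other scalings, thresholds, offsets and left-out libraries. The result for 1 member that the rule names is not reported here.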

Additional observations from a re-analysis of the deposited data

Results flagged for a closer look

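Single libraries far from the other 3 of their group were found in 14 of 86 groups of 4 values (Dixon's test at 95%, which flags about 1 group in 20 by chance), and 6 of the 14 were ARE-/- 1. In that library the normalised count was 90.8 for 2610203C20Rik (next highest 35.3), 281 for A530040E14Rik (next 120), 174 for Kcnq1ot1 (next 52.7), 147 for Mir22hg (next 42.5) and 74.4 for Plxna4os1 (next 24.8). The members without Gm26917 took 467 CPM there, against 341 in the next ARE-/- library.

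In WT 3 the count was low for 1810026B05Rik (29.0, next 40.8) and Gm3235 (20.3, next 46.3) and high for Dancr (53.2, next 38.4). WT 1 was high for 2610203C20Rik (137, next 110). ARE-/- 4 was high for Gm12002 (58.5, next 42.1), and it was the only ARE-/- library with reads for A930019D19Rik (2.40) and RP24-496C19.2 (0.80). In WT 4 the median risen member lay at -0.22 on the log2 scale against the WT mean, with the next WT library at 0.00072. The causes were not tested.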

How the results depend on the processing

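No alternative reversed a result. Against 14 risen and 102 fallen members by the authors' calls, refits called 7 risen with DESeq2, 9 risen with edgeR and TMM scaling, and 55 fallen with edgeR and library totals. Leaving out 1 library at a time, edgeR called 6 to 10 risen and 42 to 92 fallen, the lowest without WT 4 (6 risen) and WT 1 (42 fallen), while without both libraries that stood apart it called 11 and 96. These fits also had fewer libraries, and the cause of the changes was not tested. By construction fewer were left at the authors' adjusted p under 0.01 (8 risen, 44 fallen), at a mean count of at least 20 (6 and 44) and, chosen after seeing the data, of at least 100 (2 and 16). The median log2 difference was -1.51 with library totals and, chosen after seeing the data, -2.03 in members whose exons are clear of other exons. The signs were the same in 11 of the 15 pairs that overlap by 50% or more of the member and in 12 of the 17 with a member at 20 or more. Against 19 called ratios of 38 pairs, 10 passed in the fit to pairs with both rows at 20 or more, and 0 with exact permutation (14 at an unadjusted p under 0.05). The fit to pairs at 20 or more held fewer pairs by construction, at most the 17 with a member at that level. The smallest p of the permutation test left little room for any pair to pass. Without Gm26917, chosen after seeing the data, the members' mean level was 560 CPM in WT and 365 in ARE-/-. Same-numbered libraries did not deviate together (correlations 0.0064, 0.044, -0.17 and 0.27 over 3138 rows), so the numbers gave no pairing, and as a hint only the fit with a replicate block called 9 risen and 63 fallen members and 16 ratios. Under all 12 alternatives each named member kept its sign. Members under a mean count of 20 rest on few reads, and counting error limits them most.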
